A study of Homo sapiens with 16 samples.

Results

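The comparison described here sets 1% oxygen against 20% oxygen in H9 human embryonic stem cells that received a control siRNA (labelled NC). H9 is an established line that stands for 1 genotype. The measure is the translation ratio, the amount of a gene's RNA found on ribosomes carrying nascent chains (RNC) divided by its amount in total RNA, and the comparison uses the 4 control ratio columns, 2 at 1% and 2 at 20% oxygen. It covers all 15864 genes, of 28252 in the deposited table, with a ratio in all 8 columns of the study. The other 4 columns come from cells given an siRNA against OCT4 (siOCT4), 2 at each oxygen level, and all 8 rest on 8 RNA and 8 RNC libraries, 16 in all. Each RNA library and the RNC library of the same label are called a culture. Nothing in the labels tells whether replicates came from separate dishes or how long oxygen was lowered, so the p-values measure only the spread between these samples. The number of reads behind a ratio is not given, and a ratio can change through the RNC level or the RNA level, which cannot be told apart here.

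In RNC-seq, ribosomes with their growing peptides are collected together with the mRNA they sit on, so the ratio describes how much of a gene's RNA was ribosome-bound relative to other genes. Cells sense oxygen through the prolyl hydroxylases of the EGLN family, which use oxygen to mark HIF1A and EPAS1 (HIF-2α) for destruction by the VHL ubiquitin ligase. When oxygen is low the HIF proteins accumulate and raise transcription of genes for glycolysis, angiogenesis and mitophagy. Low oxygen also restrains protein synthesis through mTORC1 and through phosphorylation of eIF2α, the integrated stress response, in which general initiation falls while ATF4 and its targets are favoured. Human embryonic stem cells depend on glycolysis and are often cultured at low oxygen to limit spontaneous differentiation.

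Ratios followed transcript GC content to a different degree at the 2 oxygen levels, so each difference is given on 2 scales. The first is the log2 ratio as deposited. The second is the log2 ratio relative to the GC trend of its own column, that is, the distance from a smooth curve of log2 ratio on transcript GC content. At 20% oxygen the log2 ratio fell by 1.50 and 1.12 for every 10% of added GC, and GC content alone held 70.0% and 61.1% of its variance. At 1% oxygen the slopes were 0.01 and -0.28, with 0.0213% and 9.85% of the variance. The 1% cultures were thus nearly flat and both 20% cultures were steep.

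The coding sequences of 4 genes illustrate the 2 ends of the scale of transcript GC content. They are the 2 protein-coding genes of lowest and the 2 of highest transcript GC content among those with 8 non-recurrent ratios (a recurrent ratio is one that 3 or more genes of a column share). The first 90 coding bases are printed 5′ to 3′ from GENCODE release 29, with every G and C in capitals.
C1D: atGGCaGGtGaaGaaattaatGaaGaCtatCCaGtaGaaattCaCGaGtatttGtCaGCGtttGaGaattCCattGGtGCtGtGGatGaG
MANEA: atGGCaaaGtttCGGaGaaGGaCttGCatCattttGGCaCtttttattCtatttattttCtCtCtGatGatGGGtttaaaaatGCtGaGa
CTXN1: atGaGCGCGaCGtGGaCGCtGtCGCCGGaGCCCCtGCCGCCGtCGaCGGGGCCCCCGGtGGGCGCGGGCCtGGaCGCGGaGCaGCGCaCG
C4orf48: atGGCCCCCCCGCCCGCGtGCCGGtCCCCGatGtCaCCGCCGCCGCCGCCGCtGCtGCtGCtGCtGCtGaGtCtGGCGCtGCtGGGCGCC
C1D (a cofactor of the nuclear exosome) and MANEA (a Golgi mannosidase) have whole-transcript GC contents of 31.8% and 31.8%. CTXN1 (cortexin 1) and C4orf48 (a small secreted peptide) have 72.8% and 73.2%.

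The AT-rich MANEA had ratios of 1.01 and 1.85 at 1% oxygen and 11.3 and 7.27 at 20% oxygen. Its log2 difference was -2.73 ± 0.35 (SE, n = 2 cultures per group, limma adjusted p = 0.00112) as deposited, but -0.31 ± 0.21 relative to the GC trend (adjusted p = 0.269). C1D had ratios of 1.14 and 1.31 at 1% and 4.31 and 2.71 at 20% oxygen. It passed the test in opposite directions on the 2 scales, at -1.48 ± 0.24 as deposited and 0.94 ± 0.16 relative to the trend. In both AT-rich genes the 20% cultures lay above both 1% cultures, though after quantile normalization neither deposited difference passed. C4orf48 had ratios of 1.80 and 1.01 at 1% and 0.318 and 0.562 at 20% oxygen, with no overlap and a deposited difference of 1.67 ± 0.40 (adjusted p = 0.0131). Relative to the trend it was 0.24 ± 0.23 (adjusted p = 0.427), and the deposited call was lost without replicate 1 of either oxygen level. CTXN1, with 1.01 and 0.499 at 1% and 0.161 and 0.590 at 20% oxygen, overlapped between the oxygen levels and passed on neither scale, with adjusted p = 0.166 and 0.455, though it passed as deposited without replicate 2 at 20% oxygen.

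Across protein-coding genes the step ran through the whole range of GC content. The 1922 genes under 40% GC had median ratios of 1.01 and 1.27 at 1% oxygen and 5.60 and 4.58 at 20% oxygen, a median log2 difference of -2.17, and 1769 of them (92.0%) passed as lower at 1%. The 2487 genes at 60% GC or above had median ratios of 1.03 and 0.782 at 1% and 0.382 and 0.612 at 20% oxygen. Their median difference was 0.90, and 1104 of them (44.4%) passed as higher. Over all tested genes 39.6% passed as lower and 20.5% as higher. The difference was related to GC content with Spearman's rho 0.742 over 14266 protein-coding genes, and after the trend was taken out rho was 0.03. These are correlations across genes, which share libraries and are not independent replicates. The GC content of the coding sequence gave rho 0.687 over 14251 genes and that of the 5′ UTR 0.166 over 13575 genes. That of the 3′ UTR gave 0.6715 over 14052 genes, close to the coding sequence. Which part of the transcript the trend follows was not tested.

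**Figure D1:**
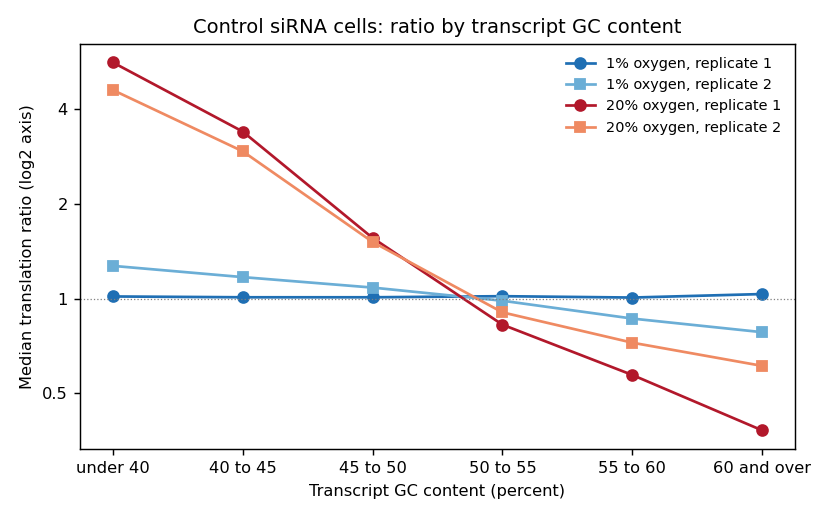
Median translation ratio (log2 axis) of protein-coding genes in 6 classes of transcript GC content, 1 line per control culture, with circles for replicate 1 and squares for replicate 2. Both 1% cultures stay near 1 (1.01 and 1.27 in the lowest class), while both 20% cultures run from 5.60 and 4.58 down to 0.382 and 0.612.

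The siOCT4 cultures showed the same 2 kinds of column with the oxygen levels exchanged: the slopes were -1.20 and -1.24 at 1% oxygen and -0.20 and -0.16 at 20% oxygen. A steep trend was therefore present in control cells at 20% and in siOCT4 cells at 1% oxygen, and its part in the differences as deposited was not tested beyond the second scale. The labels name no batch, so oxygen level and any difference between libraries that goes with it cannot be told apart. Whether columns were exchanged could not be checked from a table of ratios. Every difference between oxygen levels given here, and every comparison with siOCT4 cells, rests on the labels as they stand. Replicates correlated across genes with Pearson's r of 0.613 at 1% and 0.869 at 20% oxygen as deposited, and 0.664 and 0.633 relative to the trend. Their differences were themselves related to GC content, with r of 0.383 and -0.431. The median ratio of a control column lay between 1.02 and 1.20. Recurrent ratios can come from small read numbers, and 8087 tested genes had none. The pluripotency markers POU5F1, NANOG, SOX2 and LIN28A all had a ratio in every control culture. Ratios give no levels of RNA, so the markers of other cell types could not be used to measure how many such cells were present.

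As deposited, 3255 genes passed as higher at 1% oxygen (20.5% of those tested) and 6290 as lower (39.6%), at an adjusted p of 0.05. The median difference over all genes was -0.31. After quantile normalization of the columns the higher share of the calls was 45.5% in place of 34.1%, and the median of all genes was -0.0039 in place of -0.31. Without replicate 1 of the 1% control cultures 2015 genes were higher. Relative to the GC trend 3544 genes were higher (23.1%) and 3558 lower (23.1%) of 15371 with a GC content, around a median of 0.01. Of the 6197 deposited lower calls with a GC content, 2747 (44.3%) were also lower relative to the trend and 687 (11.1%) passed in the opposite direction. Of the 3192 deposited higher calls, 2012 (63.0%) were also higher and 0 passed in the opposite direction. Genes are said below to have risen or fallen where they passed in 1 direction on both scales: 2012 rose (13.1%) and 2747 fell (17.9%). Those that rose had a median GC content of 55.6% and those that fell 45.2%, against 49.7% over all genes. A gene must also pass as deposited, where the difference follows GC content, so this gap comes with the definition and is no separate result.

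**Figure D2:**
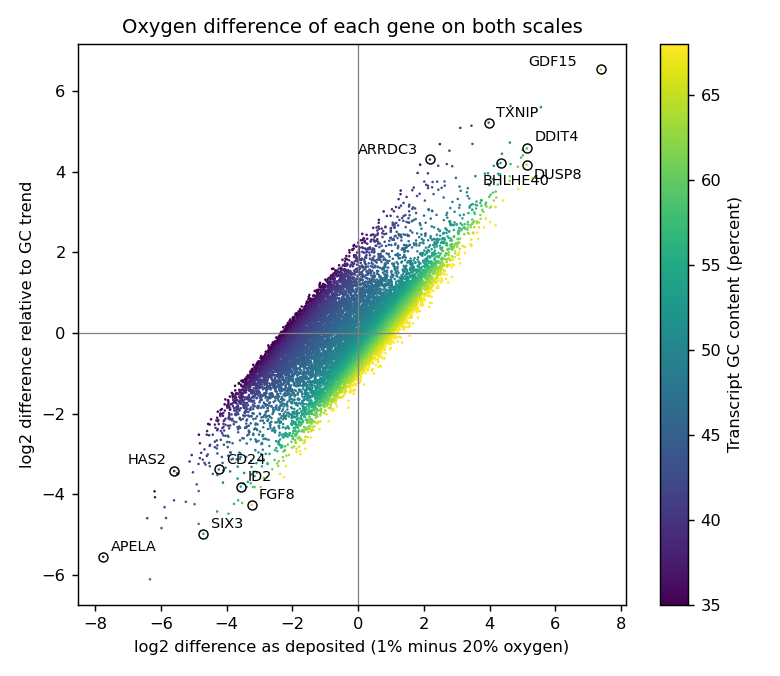
Each point is a gene, with its log2 difference between 1% and 20% oxygen as deposited on the x axis and relative to the GC trend of each column on the y axis, coloured by transcript GC content in percent. AT-rich genes (dark) lie to the left at any height. GDF15 (7.38 and 6.53) and APELA (-7.75 and -5.55) are the extremes of the genes ranked in the text.

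Genes were ranked by their difference relative to the trend among protein-coding genes that rose or fell with no overlap on either scale and no recurrent ratio, 1235 and 1653 genes. GDF15, a stress-induced hormone of the TGF-β family, had ratios of 3.36 and 2.54 at 1% oxygen and 0.0146 and 0.0210 at 20% oxygen. The 20% cultures were low (no overlap was required by the ranking). It was 167-fold higher at 1%, a log2 difference of 7.38 ± 0.31 (adjusted p = 1.52e-04), and 6.53 ± 0.14 relative to the trend (adjusted p = 9.83e-05). TXNIP, an arrestin that inhibits glucose uptake, had ratios of 3.20 and 3.52 at 1% and 0.223 and 0.206 at 20% oxygen. The replicates of each level lay close together, and the levels far apart. It was 15.7-fold higher, or 5.21 ± 0.11 relative to the trend (adjusted p = 9.83e-05), on a transcript of 43.9% GC.

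DDIT4, a HIF and stress target that inhibits mTORC1, had ratios of 5.47 and 3.13 at 1% and 0.0795 and 0.174 at 20% oxygen. Replicates of one level differed by more than for TXNIP, though by the ranking rule both 1% values were above both 20% values. The increase was 35.1-fold and 4.58 ± 0.29 relative to the trend (adjusted p = 5.74e-04). BHLHE40, a transcriptional repressor and HIF target, had ratios of 3.06 and 3.29 at 1% and 0.167 and 0.148 at 20% oxygen. It was 20.1-fold higher, 4.21 ± 0.13 relative to the trend. The 10 largest increases also held JUN, a subunit of the transcription factor AP-1 (4.54 ± 0.13), the arrestin ARRDC3, a relative of TXNIP (4.30 ± 0.17), the MAP kinase phosphatase DUSP8 (4.18 ± 0.13) and the uridine phosphorylase UPP1 (3.94 ± 0.14), all relative to the trend, besides DDIT3 and ATF3 of the stress response.

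The largest decrease among the ranked genes was that of APELA, which encodes the secreted peptide ELABELA of undifferentiated stem cells. Its open reading frame is short, and its first 90 coding bases, with G and C again in capitals, are shown because the gene combines this decrease with a low GC content (36.4%).
APELA: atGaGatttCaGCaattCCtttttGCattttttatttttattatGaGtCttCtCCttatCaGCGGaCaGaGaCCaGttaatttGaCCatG
The APELA ratio was 0.0666 and 0.0757 at 1% oxygen and 18.2 and 12.9 at 20% oxygen. The ranges at 1% and 20% oxygen were far apart. It was 216-fold lower at 1% as deposited (-7.75 ± 0.25, adjusted p = 1.52e-04) and -5.55 ± 0.20 relative to the trend (adjusted p = 2.54e-04).

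SIX3, a homeobox factor of the forebrain, had ratios of 0.0600 and 0.0172 at 1% and 0.789 and 0.895 at 20% oxygen. The 1% replicates differed widely from each other, and both lay below the 20% cultures, as the ranking required. The difference was -4.98 ± 0.58 relative to the trend (adjusted p = 0.00203). The signalling factor FGF8 had ratios of 0.0646 and 0.120 at 1% and 0.912 and 0.759 at 20% oxygen, with -4.26 ± 0.57 relative to the trend. ID2, a BMP-induced inhibitor of differentiation factors, had 0.261 and 0.317 at 1% and 3.97 and 2.95 at 20% oxygen, with -3.81 ± 0.24. By the ranking rule neither gene overlapped between oxygen levels. The cell-surface protein CD24 (-3.38 ± 0.13), the hyaluronan synthase HAS2 (-3.42 ± 0.27), the ephrin EFNA2 (-3.57 ± 0.25), the dynein assembly factor DNAAF2 (-3.50 ± 0.31), the glycosyltransferase B3GNT7 (-3.38 ± 0.16) and CCDC71 (-3.82 ± 0.22) completed the 10 largest decreases. The deposited call of EFNA2 was lost without replicate 2 of the 1% cultures.

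**Figure D3:**
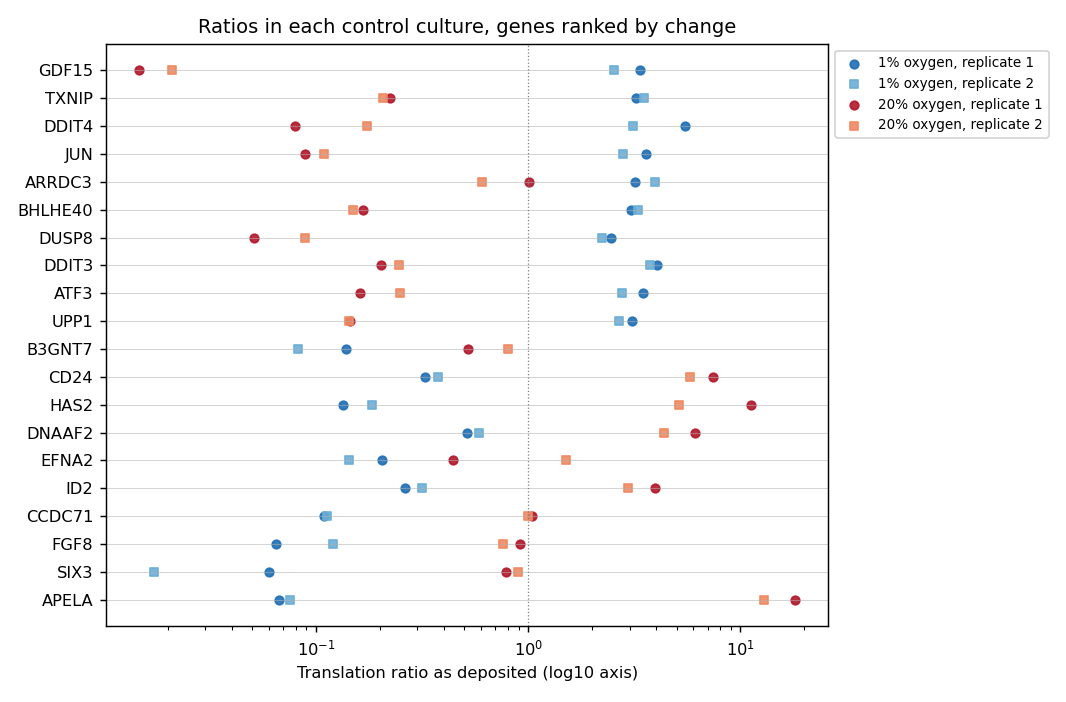
Translation ratio as deposited (log10 axis) in each of the 4 control cultures for the 10 genes with the largest increase and the 10 with the largest decrease relative to the GC trend; blue marks are 1% and red marks 20% oxygen. By the way they were chosen no gene overlaps; GDF15 runs from 0.0146 to 3.36 and APELA from 0.0666 to 18.2.

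Of 36 tested members of the integrated stress response and targets of ATF4, 22 rose and 3 fell, shares of 61.1% and 8.33% against 13.1% and 17.9% over all genes, and the list median was 1.42 as deposited and 1.54 relative to the trend, against -0.31 and 0.01. DDIT3 (CHOP), the transcription factor of the terminal stress response, had ratios of 4.04 and 3.73 at 1% and 0.201 and 0.245 at 20% oxygen. Replicates lay close together at each level, for a difference of 4.14 ± 0.12 relative to the trend (adjusted p = 2.31e-04). ATF3, another transcription factor of this response, had 3.46 and 2.77 at 1% and 0.161 and 0.249 at 20% oxygen, a difference of 3.96 ± 0.21.

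TRIB3, a pseudokinase that feeds back on ATF4, was 24.5-fold higher (3.88 ± 0.18 relative to the trend). PPP1R15A, the phosphatase subunit that reverses eIF2α phosphorylation and is itself translated under stress, had ratios of 4.15 and 2.47 at 1% and 0.211 and 0.561 at 20% oxygen and a difference of 2.61 ± 0.35. PSAT1, an enzyme of serine synthesis, had 1.50 and 1.55 at 1% and 1.17 and 0.996 at 20% oxygen. Its deposited difference was small, 0.49 ± 0.14, and was lost without either 1% culture or without replicate 2 of the 20% cultures, while relative to the trend it was 2.03 ± 0.13. ATF4 itself, whose mRNA is the classical case of selective translation under eIF2α phosphorylation, did not follow its targets. Its ratios were 0.901 and 0.754 at 1% and 1.17 and 1.46 at 20% oxygen, lower at 1% in both cultures, with -0.66 ± 0.17 (adjusted p = 0.0152) as deposited and -1.13 ± 0.10 (adjusted p = 9.41e-04) relative to the trend. The deposited call of ATF4 was lost without replicate 2 of the 1% cultures. XPOT, the tRNA exporter, and EIF2AK4, the kinase GCN2 that senses uncharged tRNA, were the other members that fell, at -1.10 ± 0.13 and -0.89 ± 0.13 relative to the trend.

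In glycolysis, glucose uptake and lactate handling 20 of 26 tested genes rose and 3 fell (76.9% and 11.5%, against 13.1% and 17.9% over all genes). The list median was 1.13 as deposited and 1.09 relative to the trend. PGK1, phosphoglycerate kinase, had ratios of 2.21 and 1.98 at 1% oxygen and 0.417 and 0.373 at 20% oxygen. No value overlapped, and the increase was 5.30-fold (2.41 ± 0.15, adjusted p = 1.60e-04), or 3.75 ± 0.20 relative to the trend. The lactate exporter SLC16A3 had 5.71 and 2.19 at 1% and 0.0668 and 0.315 at 20% oxygen, 3.77 ± 0.58 relative to the trend. Aldolase C, ALDOC, had 2.26 and 2.10 at 1% and 0.259 and 0.369 at 20% oxygen, 2.34 ± 0.16. Lactate dehydrogenase A, LDHA, which turns pyruvate into lactate, had 1.91 and 1.97 at 1% and 0.994 and 0.841 at 20% oxygen, 2.31 ± 0.11. All 4 of these genes were higher in both 1% cultures. PGK1, LDHA and GAPDH have processed pseudogenes, and how shared reads were counted is not given.

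The glucose transporter SLC2A1 was 3.05-fold higher as deposited and 1.26 ± 0.11 relative to the trend. GAPDH, the glycolytic dehydrogenase, rose less, from 0.442 and 0.518 to 1.10 and 0.965, and its value of 0.50 ± 0.12 relative to the trend lost its call without either 1% culture or without replicate 2 of the 20% cultures. The 3 genes that fell were LDHB, which favours the reverse reaction to LDHA (-1.52 ± 0.12 as deposited and -0.79 ± 0.12 relative to the trend), the red cell enzyme BPGM (-0.72 ± 0.19 relative to the trend) and the monocarboxylate transporter SLC16A1 (-2.42 ± 0.18 and -1.10 ± 0.12). LDHB had ratios of 1.19 and 1.10 at 1% and 3.30 and 3.24 at 20% oxygen, so the 2 lactate dehydrogenase subunits moved in opposite directions as deposited. With the GC content of the coding sequence in place of that of the transcript, LDHB was at 0.19 relative to the trend, and after quantile normalization it did not pass. The call of BPGM relative to the trend was lost without any 1 of the 4 control cultures. PDK1, which blocks pyruvate entry into mitochondria, was lower as deposited (-1.63 ± 0.20, adjusted p = 8.55e-04) and did not pass relative to the trend (0.27 ± 0.13, adjusted p = 0.145). It was not called as deposited after quantile normalization and was at -0.76 with the GC content of the coding sequence, so no direction is given for it.

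Of 54 tested HIF targets outside glycolysis 19 rose and 5 fell (35.2% and 9.26%, against 13.1% and 17.9% over all genes). On the deposited scale alone 20 were higher and 15 lower, where 20.5% and 39.6% of all genes were. A recurrent ratio was present in 26 of the 54. The list median was 0.21 as deposited and 0.88 relative to the trend. VEGFA, the angiogenic growth factor, had ratios of 2.29 and 1.96 at 1% and 0.753 and 0.725 at 20% oxygen. It was 2.87-fold higher in cultures that did not overlap (1.52 ± 0.13, adjusted p = 3.03e-04, and 1.18 ± 0.14 relative to the trend). BNIP3, a mitophagy receptor, had 2.39 and 2.28 at 1% and 0.892 and 0.900 at 20% oxygen, 2.44 ± 0.12 relative to the trend. Stanniocalcin 2, STC2, had 2.95 and 2.46 at 1% and 0.376 and 0.474 at 20% oxygen, 2.59 ± 0.13. Neither BNIP3 nor STC2 overlapped between the oxygen levels. The carbonic anhydrase CA9, a common marker of hypoxia, had 20.0 and 5.26 at 1% and 0.422 and 0.752 at 20% oxygen. Its ratios include recurrent ones, the 1% replicates lay far apart, and its calls on both scales were lost without replicate 1 of either oxygen level (and relative to the trend also without replicate 2 at 20% and after quantile normalization), so its size is poorly known. HILPDA, a lipid droplet protein and HIF target, fell, with 0.411 and 0.480 at 1% and 1.50 and 1.93 at 20% oxygen (-1.95 ± 0.19 relative to the trend).

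Of the 23 tested components of the oxygen-sensing pathway itself 4 rose and 2 fell, shares of 17.4% and 8.70% against 13.1% and 17.9% over all genes, and the list median was -0.22 as deposited and -0.12 relative to the trend. HIF1A had ratios of 0.591 and 0.812 at 1% and 6.10 and 4.64 at 20% oxygen. It was 7.68-fold lower at 1% as deposited (-2.94 ± 0.21, adjusted p = 1.94e-04). Relative to the trend this AT-rich transcript (39.2% GC) was at -0.98 ± 0.11 (adjusted p = 0.00157). EPAS1 had 1.17 and 1.49 at 1% and 0.776 and 0.892 at 20% oxygen, including recurrent ratios. It was 0.66 ± 0.23 as deposited (adjusted p = 0.0456), a call lost without any 1 of the 4 control cultures, and did not pass relative to the trend (0.49 ± 0.22, adjusted p = 0.127).

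VHL rose, with ratios of 1.54 and 1.42 at 1% and 0.778 and 0.915 at 20% oxygen (1.38 ± 0.14 relative to the trend). With the GC content of the coding sequence VHL was at 0.23 relative to the trend and did not pass (adjusted p = 0.222). RBX1, the RING subunit of the VHL ligase, fell (-1.01 ± 0.20), a call lost relative to the trend without replicate 1 at 1% oxygen. EGLN1, the main prolyl hydroxylase and also a HIF target, had 1.63 and 1.83 at 1% and 2.48 and 1.92 at 20% oxygen. Its deposited difference of -0.34 ± 0.17 did not pass (adjusted p = 0.130). As deposited it passed as lower without replicate 2 at 20% oxygen and as higher after quantile normalization. EGLN1 was higher relative to the trend (0.86 ± 0.12), but lower, at -0.87, with the GC content of the coding sequence, so no direction is given for it.

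Genes of core and primed pluripotency moved the other way. Of 43 tested members 26 fell and 1 rose, shares of 60.5% and 2.33% against 17.9% and 13.1% over all genes. The list median was -1.30 as deposited and -1.23 relative to the trend. USP44, a deubiquitinase of undifferentiated cells, had ratios of 0.412 and 0.501 at 1% and 12.6 and 9.70 at 20% oxygen. The difference was -2.52 ± 0.21 relative to the trend (adjusted p = 8.50e-04), with no overlap. TERF1, a telomere protein abundant in stem cells, had 0.260 and 0.308 at 1% and 5.95 and 4.15 at 20% oxygen, -2.48 ± 0.13 relative to the trend. NANOG, of the core circuit, had 0.358 and 0.523 at 1% and 2.31 and 2.23 at 20% oxygen. It was 5.25-fold lower (-2.39 ± 0.22, adjusted p = 3.55e-04) and -1.31 ± 0.18 relative to the trend (adjusted p = 0.00289).

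The other core factors did not share the size of the NANOG difference. POU5F1 (OCT4) had 1.13 and 0.810 at 1% and 0.758 and 0.981 at 20% oxygen, overlapping values with a difference of 0.15 ± 0.22 (adjusted p = 0.580) as deposited and -0.39 ± 0.14 (adjusted p = 0.0712) relative to the trend. POU5F1 has near-identical pseudogene copies, and how reads shared between copies were counted is not given. SOX2, its partner, had 0.939 and 0.690 at 1% and 0.978 and 1.30 at 20% oxygen. The 1% values were below both 20% values, but SOX2 passed on neither scale (-0.49 ± 0.21, adjusted p = 0.0891, and -0.47 ± 0.19, adjusted p = 0.0938). It did pass, as lower at 1%, on both scales without replicate 1 at 1% oxygen and over genes without a recurrent ratio, and relative to the trend also after quantile normalization and with the GC content of the coding sequence. POU5F1 passed as lower relative to the trend over genes without a recurrent ratio and with a GC spline of 3 degrees of freedom. LIN28A, the RNA-binding protein that blocks let-7 maturation, had 0.861 and 0.784 at 1% and 1.00 and 1.16 at 20% oxygen and passed on neither scale (adjusted p = 0.0532 and 0.829), but as deposited it passed without replicate 1 at 20% oxygen. DPPA4, a chromatin factor, was lower as deposited (-0.78 ± 0.14) and higher relative to the trend (0.93 ± 0.11), and at -0.16 with the GC content of the coding sequence. Whether the remaining pluripotency genes differ from these 3 core factors was not tested.

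Lists for other cell states were small and partly made of recurrent ratios. All 9 tested genes of naive pluripotency had a recurrent ratio, and 5 rose (3 without either 1% culture), among them KLF5 (2.02 and 2.75 at 1% and 0.699 and 0.371 at 20% oxygen). Of 15 tested trophectoderm and amnion markers 7 rose and 1 fell, with GATA3 at 3.69 and 1.70 at 1% and 0.633 and 0.586 at 20% oxygen, recurrent ratios included; its call relative to the trend was lost without replicate 2 at 20% oxygen. Without replicate 1 at 1% oxygen 2 of the 15 rose, without replicate 2 at 20% oxygen 3, and without replicate 2 at 1% or either siOCT4 culture at 20% oxygen 4. Of 13 fibroblast and stroma markers 6 rose and 2 fell (0 fell without replicate 2 at 1% or replicate 2 at 20% oxygen). Of 17 tested mesendoderm and mesoderm markers 2 rose and 5 fell (11.8% and 29.4%). Of 18 neuroectoderm and neural crest markers 2 rose and 3 fell (11.1% and 16.7%). The shares that rose and fell were 55.6% and 0% for naive, 46.7% and 6.67% for trophectoderm and 46.15% and 15.4% for fibroblast genes. Over all genes they were 13.1% and 17.9%. The part of these lists in the pluripotency result was not tested.

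Genes for the extracellular matrix were mostly higher at 1% oxygen. Of 43 tested collagens, laminins and other matrix genes 26 rose and 3 fell (60.5% and 6.98%, against 13.1% and 17.9% over all genes). The list median was 1.18 as deposited and 0.93 relative to the trend. Relative to the trend 29 were higher (67.4%, against 23.1% over all genes), and after quantile normalization 18, with a median of 0.48. Thrombospondin 1, THBS1, had ratios of 1.85 and 2.03 at 1% and 0.413 and 0.459 at 20% oxygen (3.05 ± 0.12 relative to the trend). The metalloproteinase inhibitor TIMP3 had 2.01 and 2.22 at 1% and 0.576 and 0.587 at 20% oxygen (2.17 ± 0.09). COL1A1, a chain of type I collagen, was 3.46-fold higher (1.05 ± 0.11 relative to the trend). The proteoglycan versican, VCAN, fell, with 0.245 and 0.318 at 1% and 3.21 and 2.66 at 20% oxygen (-1.96 ± 0.12).

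Among 33 tested genes of cholesterol and fatty acid synthesis 16 rose and 3 fell, with medians of 0.82 and 0.58 on the 2 scales. The shares were 48.5% and 9.09%, against 13.1% and 17.9% over all genes. ACSS2, which makes acetyl-CoA from acetate, had ratios of 1.80 and 1.90 at 1% and 0.279 and 0.282 at 20% oxygen (2.40 ± 0.13 relative to the trend). It was higher in each 1% culture, whereas the fatty acid elongase ELOVL6 fell (-1.39 ± 0.13). Among 26 tested p53 targets 12 rose and 1 fell (46.15% and 3.85%), with medians of 0.85 and 0.62. On the deposited scale alone 14 of these were higher and 10 lower, where 20.5% and 39.6% of all genes were. GADD45A, a growth arrest gene, had 4.11 and 2.79 at 1% and 0.455 and 0.634 at 20% oxygen (2.59 ± 0.22), and the cell cycle inhibitor CDKN1A (p21) had 2.48 and 2.19 at 1% and 0.340 and 0.543 at 20% oxygen (1.89 ± 0.14). SESN2, a stress-induced inhibitor of mTORC1, rose by 2.21 ± 0.09 relative to the trend. In the mTORC1 list of 36 genes, to which DDIT4 and SESN2 belong, 6 rose and 7 fell. These shares, 16.7% and 19.4%, were near the 13.1% and 17.9% over all genes, and the list median was 0.05 and -0.23.

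**Figure D4:**
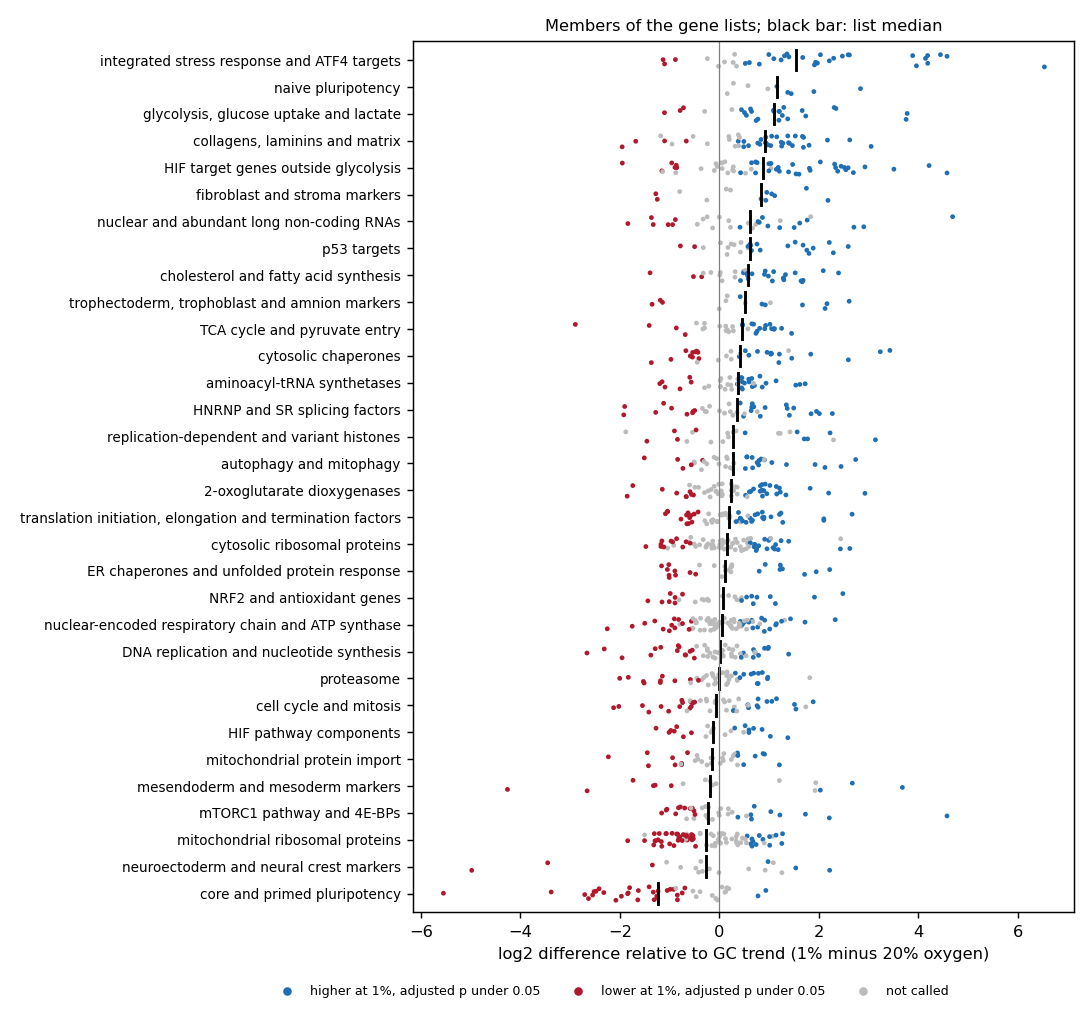
Log2 difference between 1% and 20% oxygen relative to the GC trend (x axis) for every tested member of 32 gene lists, ordered by their median (black bar); blue points passed as higher, red points as lower and grey points did not pass. The stress response list (median 1.54) is at the top and core pluripotency (median -1.23) at the bottom.

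Lists of the translation machinery and of mitochondria held both genes that rose and genes that fell. Of 79 cytosolic ribosomal protein genes 8 rose and 10 fell, shares of 10.1% and 12.7% that lie under the 13.1% and 17.9% over all genes. The list median was -0.04 as deposited and 0.14 relative to the trend. On the second scale 19 were higher and 11 lower (24.05% and 13.9%), against 23.1% in each direction over all genes. That count of higher genes was 6 without replicate 1 at 1% oxygen, and quantile normalization gave 5 higher, 14 lower and a median of -0.10, so no direction is given for the list. RPS3, a protein of the small subunit, had ratios of 1.52 and 1.04 at 1% and 0.386 and 0.557 at 20% oxygen (2.43 ± 0.34), whereas RPS20 of the same subunit fell from 1.58 and 0.944 to 0.444 and 0.514. RPS20 was at -1.48 ± 0.30 relative to the trend, not called without replicate 1 at 1% oxygen, and at 0.22 with the GC content of the coding sequence. Ribosomal protein genes have many near-identical pseudogenes, so single members are uncertain. Of 79 mitochondrial ribosomal proteins 22 fell and 6 rose, with a median of -0.53 as deposited and -0.26 relative to the trend, where 33 were lower (18 without replicate 2 at 1% oxygen). Without that culture 14 fell. With all cultures the shares of this list that fell and rose were 27.85% and 7.595%, against 17.9% and 13.1% over all genes. A lower value on the second scale was called in 41.8% of the list, against 23.1% over all genes. MRPS17 was the example with the largest decrease named by the rule (0.495 and 0.511 at 1% and 3.10 and 2.31 at 20% oxygen, -1.84 ± 0.21).

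Of 78 nuclear-encoded genes of the respiratory chain and ATP synthase 11 fell and 3 rose (14.1% and 3.85%, against 17.9% and 13.1% over all genes), and with 1 culture left out between 0 (without replicate 1 at 1% oxygen) and 4 rose. Without siOCT4 replicate 1 at 20% oxygen 1 rose, and without replicate 2 at 1% oxygen 7 fell. The coupling factor ATP5PF fell (0.692 and 0.733 at 1% and 3.52 and 2.43 at 20% oxygen, -2.25 ± 0.26 relative to the trend), but was at -0.17 with the GC content of the coding sequence and did not pass (adjusted p = 0.412). Relative to the trend 17 members were higher (21.8%, against 23.1% over all genes), around a median of 0.05. With 1 culture left out that median lay between -0.08 and 0.11. Of 57 translation factors 13 rose and 12 fell, with a median of -0.37 as deposited and 0.19 relative to the trend, where 24 were higher (15 without replicate 1 at 1% oxygen, 13 after quantile normalization). Without that culture 8 rose. With all cultures the shares of translation factors that rose and fell were 22.8% and 21.05%, against 13.1% and 17.9% over all genes. A higher value on the second scale was called in 42.1% of these factors, against 23.1% over all genes. EIF1, which guards start codon choice, had ratios of 1.96 and 2.00 at 1% and 0.806 and 0.751 at 20% oxygen (2.10 ± 0.09). Its paralog EIF1B had 2.51 and 2.04 at 1% and 0.897 and 1.05 at 20% oxygen (2.67 ± 0.22). Of 39 aminoacyl-tRNA synthetases, several of them ATF4 targets, 13 rose and 4 fell, and without replicate 1 at 1% oxygen 8 rose. With all cultures the synthetase shares were 33.3% and 10.3%, and on the deposited scale alone 16 synthetase genes were higher and 15 lower. The seryl-tRNA synthetase SARS had 1.95 and 1.91 at 1% and 0.526 and 0.510 at 20% oxygen (1.72 ± 0.10).

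Of 32 tested cytosolic chaperones with a GC content 10 rose and 9 fell, of which 5 fell without replicate 2 at 1% oxygen and 0 with the GC content of the coding sequence. With all cultures the chaperone shares that rose and fell were 31.25% and 28.1%, against 13.1% and 17.9% over all genes. The inducible HSP70 genes HSPA1A and HSPA1B, which are near-identical and cannot be told apart with confidence, had ratios of 2.21 and 1.89 and of 2.69 and 2.11 at 1% oxygen. At 20% oxygen they had 0.125 and 0.152 and 0.122 and 0.175, so both were low there and high at 1%, by 3.23 ± 0.11 and 3.43 ± 0.12 relative to the trend. Their co-chaperone BAG3 moved with them (2.59 ± 0.11). The heme oxygenase HMOX1, an NRF2 target, rose by 2.48 ± 0.16. Of 54 tested 2-oxoglutarate dioxygenases, enzymes that use oxygen as a substrate, 12 rose and 5 fell (22.2% and 9.26%). On the deposited scale alone 18 dioxygenases were higher and 16 lower. KDM6B, a histone H3K27 demethylase of this family, had 1.73 and 1.64 at 1% and 0.195 and 0.222 at 20% oxygen (2.20 ± 0.19). Of 44 cell cycle genes 7 rose and 13 fell (15.9% and 29.5%), against 13.1% and 17.9% over all genes.

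Among 30 tested nuclear and abundant long non-coding RNAs 6 rose and 5 fell, and fewer fell with any 1 culture left out. The shares were 20.0% and 16.7%, against 13.1% and 17.9% over all genes. NEAT1, the scaffold of nuclear paraspeckles and a HIF target, had 5.79 and 4.69 at 1% and 0.360 and 0.608 at 20% oxygen, recurrent ratios included (4.69 ± 0.31). TUG1, another long non-coding RNA, fell from 5.78 and 4.96 to 0.705 and 0.938 (-1.33 ± 0.13). A ratio is thus present, and differs between oxygen levels, in NEAT1 and TUG1, which were listed as non-coding.

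The same contrast in siOCT4 cells, which shares no column with the control cells, tested where the oxygen difference depended on the siRNA. This dependence was tested with limma at the same adjusted p threshold as the oxygen differences. Relative to the GC trend the control difference passed as above the siOCT4 difference in 3272 genes (21.3%) and as below it in 3434 (22.3%). GDF15 had ratios of 0.510 and 0.455 at 1% and 0.884 and 1.04 at 20% oxygen in siOCT4 cells, where its 20% ratio was not low. APELA had 3.36 and 4.91 at 1% and 1.77 and 1.67 at 20% oxygen in siOCT4 cells, higher at 1% as deposited. PGK1 had 0.465 and 0.461 at 1% and 0.821 and 0.838 at 20% oxygen, lower at 1%.

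In the lists, members are counted as above or below only where they passed that test, as 21.3% and 22.3% of all genes did. On this count 24 of 36 stress response genes lay above and 4 below, and the siOCT4 median was -0.01. In glycolysis 21 of 26 lay above and 1 below, with a siOCT4 median of -0.52. In core pluripotency 4 of 43 lay above and 23 below, with a siOCT4 median of -0.09. Cytosolic ribosomal proteins lay above in 63 of 79 and below in 0, with a siOCT4 median of -1.48. The respiratory chain was similar, with 52 of 78 above, 3 below and a siOCT4 median of -1.31.

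**Figure D5:**
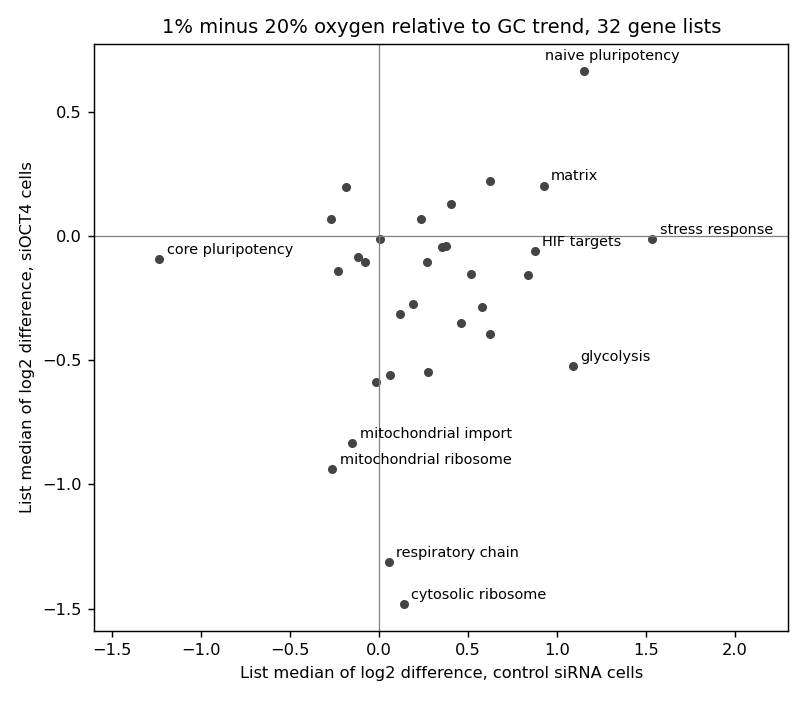
Median log2 difference between 1% and 20% oxygen relative to the GC trend for 32 gene lists, in control siRNA cells (x axis) and siOCT4 cells (y axis). The stress response (1.54 and -0.01), glycolysis (1.09 and -0.52) and core pluripotency (-1.23 and -0.09) lie far from 0 in control cells, and the cytosolic ribosome (0.14 and -1.48) in siOCT4 cells.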

How the data were processed

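The deposited table holds 1 translation ratio per gene and culture, in the unit ratio, which the authors computed as RNC over RNA; per the submitters' processing notes edgeR and hg19 were used, and for the mapper, annotation, filters and depth the entry is "not given in the sources used here". Columns marked "sO" were read as siOCT4. Log2 ratios of the 15864 genes with a ratio in all 8 columns were fitted in R 4.3.3 with limma 3.58.1 and statmod 1.5.0 (trend and robust, 4 group means, 4 residual degrees of freedom), so that the siOCT4 cultures share in the estimate of the spread. Two-sided p-values were adjusted by Benjamini and Hochberg's method across every gene tested on a scale, with a threshold of 0.05. The second scale used residuals of each column from a natural spline (6 degrees of freedom) on transcript GC content, from 1 transcript per gene of GENCODE release 29, matched by symbol for 96.9% of tested genes. That release is on another build than hg19 and gave no coordinates. Recurrent ratios are those that 3 or more genes of a column share within a relative tolerance of 2e-06. The fit was tested on simulated data.

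The members, the 32 gene lists and the rules were chosen with earlier results of these data known. The rule named the 10 largest differences per direction relative to the trend among protein-coding genes that passed on both scales without overlap or recurrent ratio, up to 4 such members per list (2 where none passed), POU5F1, HIF1A, EPAS1, VEGFA and the 2 genes at each end of GC content; the text describes part of these. EGLN1, CA9, HILPDA, SLC2A1, GAPDH, PDK1, LDHB, BPGM, TRIB3, ATF4, PSAT1, PPP1R15A, NANOG, SOX2, LIN28A, DPPA4, ELOVL6, NEAT1, GATA3 and other genes outside it were added after their values were seen. Lists were given no test. Alternatives were median centring, quantile normalization, pseudocounts of 0.01 and 0.1, other GC corrections, fits of only the control cultures, leaving out genes with recurrent ratios and each culture in turn, and, added after seeing the data, a replicate block in control cultures alone, uncrossed and crossed. Figures were drawn with matplotlib 3.10.9, and descriptions computed with scipy 1.17.1, pandas 2.3.3 and numpy 2.4.6 under Python 3.11.15.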

Additional observations from a re-analysis of the deposited data

Results flagged for a closer look

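For 61 of the 82 genes described, limma's interaction test set the oxygen difference in control cells apart from that in siOCT4 cells, in 1 direction on both scales at an adjusted p of 0.05. Each value below is the log2 oxygen difference (1% minus 20%) in control cells minus that in siOCT4 cells, relative to the GC trend, with 2 cultures per group. Over all genes 21.3% passed above 0 and 22.3% below 0 on this scale. As deposited the interaction was called in 10893 of 15864 genes. The share of all genes that passed in 1 direction on both scales is not given here. The genes were picked for their control difference, so the share that passed among them does not measure how often the siRNA mattered.

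Among the genes with the largest control increases the value was 6.50 for GDF15, 4.54 for TXNIP, 4.75 for DDIT4, 3.37 for JUN, 3.26 for BHLHE40, 3.70 for DUSP8 and 5.04 for UPP1. In the stress response it was 4.10 for DDIT3, 4.04 for ATF3, 4.07 for TRIB3 and 1.85 for PPP1R15A, against -1.59 for XPOT and -1.58 for EIF2AK4. Among HIF targets and the HIF pathway it was 0.86 for VEGFA, 3.07 for STC2, 3.92 for BNIP3 and 1.82 for VHL, against -1.19 for HILPDA and -1.70 for HIF1A. In glycolysis it was 5.75 for PGK1, 4.78 for SLC16A3, 2.92 for ALDOC, 3.04 for LDHA, 2.12 for SLC2A1 and 1.18 for GAPDH, against -1.32 for SLC16A1.

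Below 0 were -5.40 for APELA, -5.04 for SIX3, -4.17 for FGF8, -4.48 for CCDC71, -4.18 for ID2, -4.12 for DNAAF2, -4.14 for HAS2, -3.29 for CD24 and -4.58 for B3GNT7. In pluripotency the value was -1.07 for NANOG, -1.49 for SOX2, -2.92 for USP44 and -2.06 for TERF1. SOX2 passed here although its control difference alone did not pass.

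For matrix genes the value was 2.77 for THBS1, 2.55 for TIMP3, 0.80 for COL1A1 and -2.75 for VCAN. For lipid genes it was 2.68 for ACSS2 and -1.79 for ELOVL6. It was 2.55 for GADD45A, 1.49 for CDKN1A, 1.89 for SESN2, 1.69 for HSPA1A, 1.86 for HSPA1B, 1.50 for BAG3, 2.25 for HMOX1 and 1.68 for KDM6B. For the translation machinery and mitochondria it was 5.02 for RPS3, 3.38 for EIF1, 3.94 for EIF1B, 2.12 for SARS and -1.75 for ATP5PF. NEAT1, with recurrent ratios, was at 6.18, TUG1 at -2.06 and the GC-rich C4orf48 at 1.72.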

How the results depend on the processing

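The count of genes higher at 1% oxygen as deposited, 3255, was 2104 in a fit of only the control cultures (2095 with the replicate number as a block), 1935 over genes with a ratio in the control columns, and between 2015 and 3745 with 1 culture left out. The count of lower genes, 6290, was 3670 after quantile normalization and 3963 over genes without a recurrent ratio. Relative to the GC trend, over genes with a ratio in the control columns, 2252 were higher and 2333 lower. The labels give groups the same replicate numbers, but same-numbered cultures did not deviate together across genes (r from -0.233 to 0.0225 as deposited). These correlations cannot tell whether same-numbered cultures were grown or processed together. The main fit used no replicate block. A replicate block over all 8 cultures gave 2870 higher and 6015 lower as deposited, and 3172 and 3180 relative to the trend. In the control cultures alone, relative to the trend, the block gave 713 higher and 828 lower, and the crossed pairing 1972 and 1961. Of the interaction, called in 10893 genes as deposited, 7034 were called after quantile normalization and 6874 without recurrent ratios. EGLN1 reversed to 0.71 as deposited after quantile normalization. With the GC content of the coding sequence, values relative to the trend reversed to -0.87 for EGLN1, -0.76 for PDK1, 0.19 for LDHB, -0.16 for DPPA4 and 0.22 for RPS20. Of the 82 genes described 77 were called as deposited, 66 of them under every alternative, and 74 relative to the trend, 49 of them under every alternative. In control cultures alone with the block, genes that passed on both scales fell in number from 22 to 14 of those that rose in the stress response, from 20 to 7 in glycolysis, from 26 to 6 in the matrix list and from 19 to 10 among HIF targets, and from 26 to 10 of those that fell in core pluripotency. With 1 culture left out these 5 counts stayed within 1.5 times. After quantile normalization C1D, MANEA, DPPA4 and PDK1 were not called as deposited, nor were CA9, GAPDH, LDHB, BPGM and DPPA4 relative to the trend. Some genes gained a call: SOX2, LIN28A, EGLN1 and CTXN1 as deposited, and SOX2, POU5F1, LIN28A, PDK1 and C4orf48 relative to the trend, each under 1 to 4 alternatives. Read numbers are not given, so what depth limits could not be measured. Where a culture was left out, the one that remained in its group was taken to vary as the other groups did.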

Other observations

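Some genes had a ratio at 1 oxygen level only and entered no comparison. A ratio was given in both 1% control cultures and in neither 20% culture for 467 genes, 279 of them protein-coding, and in the opposite pattern for 114 genes, 69 of them protein-coding. Of these, 466 and 113 had a recurrent ratio. Members of the gene lists among the first were CDX1, FOXA1, LUM, RPPH1 and VTN, and among the second EVX1. The control columns gave a ratio for 18303 and 18246 genes at 1% oxygen and for 17448 and 17669 at 20% oxygen.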
